A study of Mus musculus with 24 samples.

Results

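Contraction was imitated in C2C12 myotubes, the multinucleate muscle cells formed by a mouse myoblast line, and the RNA harvested afterwards was compared with RNA of cultures that were not stimulated. The comparison at 5 % O2 was followed here. It holds the 12 libraries labelled 5STIM and 5CTRL, 6 in each group, out of 24 in the series, and they were chosen by these labels alone. All myotubes were labelled as day 5 of differentiation, a step that the study's methods place under 5 % O2. All were given 2 h at 5 % O2, a period that the methods place before the stimulation. In 5 % STIM, electrical stimulation followed in 6 bouts of 30 s, separated by 4 min, in which trains of 5 s alternated with pauses of 1 s. Pulses lasted 2 ms and were given at 14 V with a frequency of 50 Hz. In 5 % CTRL no current was passed. The differentiation medium was changed before and after the stimulation, and whether the unstimulated cultures had the same changes is not stated, so a response to the medium and one to the current cannot be told apart here. C2C12 is a single cell line, and its myotubes in a dish have no nerve, vessel or load.

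Libraries held 26541858 to 27738555 reads in 5 % CTRL and 26706265 to 27194077 in 5 % STIM. The 10 most abundant genes took 6.64 % to 7.19 % of reads over the 12 libraries. All 27 markers of myotubes were detected, among them Acta1, skeletal alpha-actin, Myh3, embryonic myosin, and Ckm, muscle creatine kinase. Their summed normalized counts (read counts divided by the authors' size factor for the library) were 959100 to 1039000 in 5 % CTRL and 899500 to 1029000 in 5 % STIM. After stimulation 5 of the 27 were lower (18.5 %), against 12 % of all genes tested. Leukocyte markers were near 0, with a sum of 120.7 to 158.5 over 10 genes in 5 % CTRL and 129.2 to 143.0 in 5 % STIM, and 6 of the 10, including Ptprc, the antigen CD45, stayed under 10 in every library. Of 8 endothelial markers 6 were under 10 in every library, Pecam1, Cdh5 and Kdr included. Myoblast markers summed to 86760 to 93310 over 10 genes in 5 % CTRL and to 85110 to 90800 in 5 % STIM. Those of adipocytes and fibroblasts summed to 203000 to 237300 in 5 % CTRL and to 194200 to 217100 in 5 % STIM. Of these 8 genes, 4 stayed under 10 in every library. So the markers do not show that the cultures were free of unfused or fibroblast-like cells. The slope of log2 values on log exon length, which moves with RNA integrity and library preparation, was -0.0187 to 0.0416 in 5 % CTRL and -0.0227 to -0.000685 in 5 % STIM, with overlap. Its part in the results was not tested beyond a fit that holds it as a covariate. In bulk RNA fewer cells of a kind and less RNA per cell cannot be told apart.

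Contracting muscle is known to turn on genes in waves. Calcium, stretch, a falling energy charge and reactive oxygen act on transcription factors that are already present, and these turn on immediate early genes within minutes. Secreted factors, the myokines, and genes of fuel use follow. NF-κB, a dimer held in the cytoplasm by inhibitor proteins, is the classical activator of chemokine genes, whose products attract white blood cells. ATF4, a basic leucine zipper factor, serves the integrated stress response by raising genes of amino acid supply. SREBP2 serves sterol supply in a like manner.

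A gene was tested where its normalized count reached 10 in at least 6 of the 24 libraries, and called where the limma adjusted p-value was under 0.05. Fold changes are differences of mean log2(normalized count + 1), 5 % STIM minus 5 % CTRL, ± SE, which understates the change of genes with few counts. Ranges are the lowest and highest of the 6 libraries of a group. Of 14541 genes tested, 3115 (21.4 %) were called, 1372 (9.44 %) higher and 1743 (12 %) lower. With libraries rescaled to the same total, 1860 were higher and 1133 lower, and the median change of all genes moved from -0.01 to 0.02, so the split of small changes depends on the scaling. A log2 fold change of at least 1 was reached by 110 genes higher (0.756 %) and by 18 lower (0.124 %), and the 12 libraries of a gene did not overlap between the groups for 1611 genes (11.1 %). The larger changes were thus mostly upward.

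Hand-written lists sorted the members by role. Counts for each list are to be read beside the shares of all genes tested, 9.44 % higher and 12 % lower. Of 191 transcription factor and cofactor genes tested, 66 (34.6 %) were higher and 22 (11.5 %) lower, and 60 did not overlap between the groups. For secreted factors 39 of 156 were higher (25.0 %) and 24 lower (15.4 %), with 49 free of overlap. For metabolic genes 88 of 335 were higher (26.3 %) and 47 lower, with 97 free of overlap. Median log2 fold changes were 0.07, 0.05 and 0.03 for these families against -0.01 for all genes tested. These are descriptions, since the lists were chosen with results of these data known, and 65 secreted factor genes, 24 transcription factor genes and 18 metabolic genes were too low to be tested. Another 7, 2 and 1 of these families passed the filter on low values only through the stimulated libraries. In the plot of change against level, Cxcl1, Cxcl5 and Ccl2 stood above every other listed gene.

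**Figure D1:**
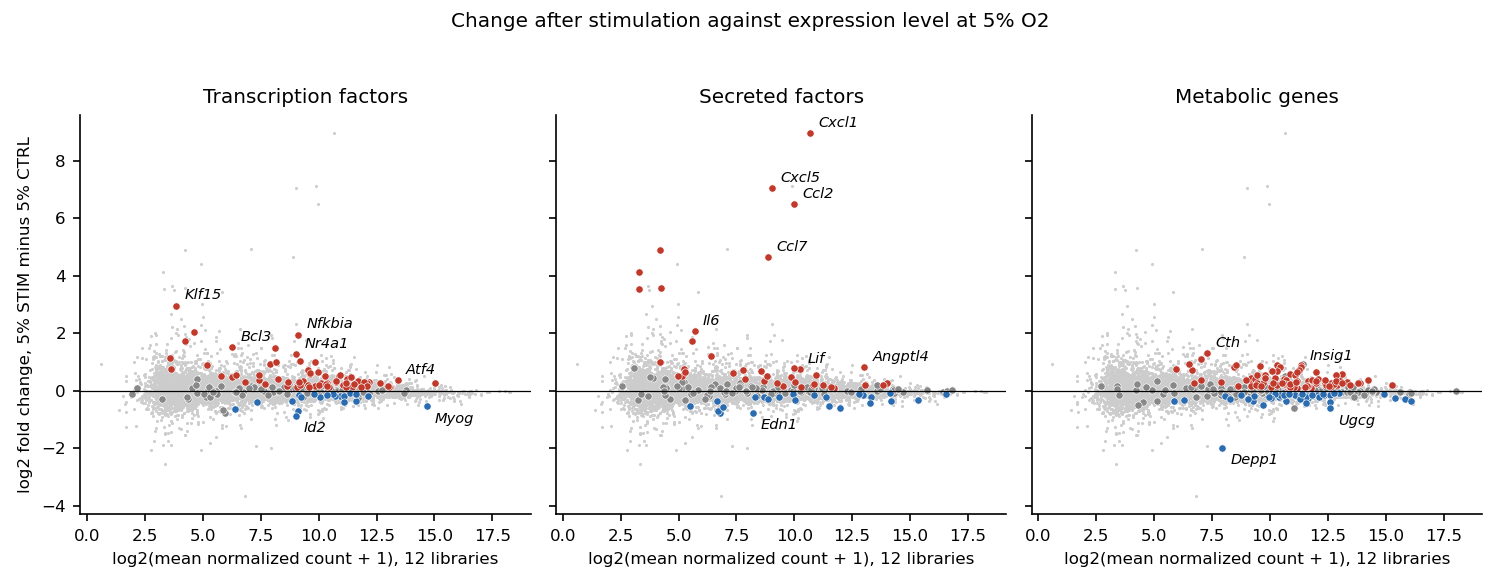
Log2 fold change (5 % STIM minus 5 % CTRL) against log2 of the mean normalized count + 1 over the 12 libraries, with each gene tested as a grey dot and the listed transcription factors, secreted factors and metabolic genes as larger points (red, higher; blue, lower; dark grey, not called). Cxcl1, Cxcl5, Ccl2 and Ccl7 lie between 4.63 and 8.95, while Depp1 is the lowest listed gene at -1.98.

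Replicate 4 of 5 % STIM stood apart for the chemokine and NF-κB genes that follow. It was the highest of the 6 stimulated libraries for 10 of the 11 chemokines that rose and for 6 of the 8 NF-κB genes that rose, against 17.7 % of all 1372 genes called higher. For metabolic genes that rose it was highest in 6.82 %. Without it 10 of the 11 chemokines and all 8 NF-κB genes were still called, and the log2 fold changes of Cxcl1 and Ccl2 were 8.84 and 6.41.

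Among the lists of transcription factors the NF-κB system had the highest median change, 0.76 over 10 members tested against -0.01 for all genes, and 8 of the 10 were higher while the other 2 were not called. The inhibitors led. Nfkbia, which encodes the inhibitor IκBα and is itself a target of NF-κB, ranged from 195 to 254 (median 225) in 5 % CTRL and from 800.5 to 1056 (median 846) in 5 % STIM. Every stimulated library stood above every control, and replicate 4 was highest at 1056 (log2 fold change 1.95 ± 0.07, limma adjusted p = 1.3e-21; 1.89 without replicate 4). Nfkbie, the inhibitor IκBε, lay from 127 to 182 (median 139) in 5 % CTRL and from 349.8 to 513 (median 378) in 5 % STIM, a log2 fold change of 1.47 ± 0.09 with no overlap. Bcl3, a nuclear IκB protein that joins p50 and p52 dimers, was low in controls, at 29.3 to 43.3 (median 38.5), and reached 90.8 to 159 (median 109.7) after stimulation (log2 fold change 1.53 ± 0.14, limma adjusted p = 3.9e-10). Nfkbiz, the inducible cofactor IκBζ, went from 532 to 672 (median 616) in 5 % CTRL and from 1092 to 1462 (median 1191) in 5 % STIM (log2 fold change 1.01 ± 0.07, limma adjusted p = 4.8e-14).

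Of the subunits themselves, Relb, the partner of p52 in the noncanonical pathway, ranged from 168 to 224 (median 185) in 5 % CTRL and from 336 to 425 (median 375) in 5 % STIM and did not overlap (log2 fold change 0.99 ± 0.07). Nfkb2, the precursor of p52, followed at 0.53 ± 0.04. Rel and Nfkb1 are outside the rule for named genes and were added once their values had been seen, at 0.30 ± 0.06 and 0.29 ± 0.03. Rela, the main activating subunit, gave 0.10 ± 0.04 (adjusted p = 0.055), and its libraries overlapped. Irf1, an interferon-responsive factor often induced with NF-κB, stood from 496 to 604 (median 566) in 5 % CTRL and from 813 to 1123 (median 884) in 5 % STIM (log2 fold change 0.71 ± 0.06, limma adjusted p = 1.0e-11), with no overlap.

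Promoters were read for the sequence that NF-κB binds, and those of Nfkbiz, Relb, Cxcl5, Ccl2 and Ccl7 were not searched. The windows run from 250 bases before to 50 bases after the gene's start, from RefSeq on GRCm38.p6, on the gene's strand from 5′ to 3′. Capitals mark matches, on either strand, of the κB consensus, a stricter form of the pattern GGG and CC separated by 5 bases, so each consensus match is also a match of the looser pattern. Cxcl1, Nfkbia, Nfkbie, Bcl3 and Il6 are shown as examples of a chemokine, inhibitors and a cytokine that rose without overlap between the groups and hold such a match. They are not the only ones, since Nr4a1, Irf1, Ier3 and Tnfaip3 hold one as well. The searched promoters of Zc3h12a, Klf11, Atf3, Lif, Gdf15 and Vegfc held the looser pattern without the consensus.
Cxcl1, chr5:90890995-90891294 (+ strand): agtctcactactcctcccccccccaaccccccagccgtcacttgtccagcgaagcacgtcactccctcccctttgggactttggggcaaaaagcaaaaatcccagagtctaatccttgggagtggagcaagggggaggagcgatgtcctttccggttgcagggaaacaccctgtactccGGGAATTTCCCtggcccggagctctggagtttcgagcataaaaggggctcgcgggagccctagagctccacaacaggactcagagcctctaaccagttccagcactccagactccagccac
Nfkbia, chr12:55492598-55492897 (- strand): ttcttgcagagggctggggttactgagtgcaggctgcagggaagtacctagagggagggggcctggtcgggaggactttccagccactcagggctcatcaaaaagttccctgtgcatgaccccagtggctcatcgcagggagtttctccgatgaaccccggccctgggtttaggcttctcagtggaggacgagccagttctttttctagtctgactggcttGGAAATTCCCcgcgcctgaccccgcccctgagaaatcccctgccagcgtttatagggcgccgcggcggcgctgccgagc
Nfkbie, chr17:45555450-45555749 (+ strand): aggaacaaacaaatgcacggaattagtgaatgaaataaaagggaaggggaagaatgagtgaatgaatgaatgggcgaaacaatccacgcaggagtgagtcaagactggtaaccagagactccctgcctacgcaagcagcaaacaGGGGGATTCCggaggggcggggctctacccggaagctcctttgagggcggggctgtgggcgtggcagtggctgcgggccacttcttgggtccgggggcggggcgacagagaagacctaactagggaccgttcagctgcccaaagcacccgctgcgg
Bcl3, chr7:19822706-19823005 (- strand): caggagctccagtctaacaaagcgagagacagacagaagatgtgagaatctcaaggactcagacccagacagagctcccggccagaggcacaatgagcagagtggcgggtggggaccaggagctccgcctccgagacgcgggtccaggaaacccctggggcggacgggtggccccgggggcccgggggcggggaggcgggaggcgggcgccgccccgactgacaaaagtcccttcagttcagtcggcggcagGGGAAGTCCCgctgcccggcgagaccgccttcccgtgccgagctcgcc
Il6, chr5:30012864-30013163 (+ strand): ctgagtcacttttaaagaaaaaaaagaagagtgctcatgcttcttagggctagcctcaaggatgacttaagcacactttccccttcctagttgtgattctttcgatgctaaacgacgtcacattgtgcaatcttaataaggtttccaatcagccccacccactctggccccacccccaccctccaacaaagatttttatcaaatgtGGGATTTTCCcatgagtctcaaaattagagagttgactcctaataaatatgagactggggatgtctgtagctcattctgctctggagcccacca

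The match began 29 bases before the start of Nfkbia, 44 before that of Il6 and 106 before that of Nfkbie, and Cxcl1 held overlapping matches that began 71 and 70 bases before its start. In Bcl3 it lay just after the start. Of the 110 genes called higher with a log2 fold change of at least 1, 66 had a promoter window, and 19 of these (28.8 %) held the κB consensus. For all genes tested with a promoter the share was 6.3 %, and for all 27025 genes with a window 5.14 %. By single windows the shares were 23.8 % of 84, 5.27 % of 13475 and 4.51 % of 32851. Of the 18 genes called lower with a log2 fold change of -1 or less, 9 had a window. The consensus was held by 1 of these (11.1 %). The looser κB pattern set the 66 higher genes apart less, at 72.7 % against 71.5 % of genes tested. For the AP-1 site (TGANTCA) the shares were 12.1 % and 6.43 %, for the cAMP response element (TGACGTCA) 4.55 % and 3.49 %, for its core TGACG, which the full element contains, 36.4 % and 34.7 %, and for the CArG box of serum response factor 0 % and 1.56 %. A match of letters is not a bound site, and no test was made of these shares.

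Chemokines showed the largest changes among the lists. Of 36 chemokine genes listed 15 were tested, 11 were higher and 1 lower, and 8 of the 11 had a log2 fold change of at least 1. Of the 15, 4 passed the filter on low values only because of the stimulated libraries, so the count is not evidence by itself. Cxcl1 (chr5:90891241-90893115, + strand), a ligand of CXCR2 that draws neutrophils, ranged from 0 to 12.6 (median 6.69) in 5 % CTRL and from 2526 to 4673 (median 3112) in 5 % STIM (log2 fold change 8.95 ± 0.43, limma adjusted p = 7.1e-13). Cxcl5 (chr5:90759360-90761624, + strand), another CXCR2 ligand, lay from 4.09 to 9.43 (median 7.69) in 5 % CTRL and from 802 to 1343 (median 985) in 5 % STIM (log2 fold change 7.04 ± 0.19, limma adjusted p = 4.6e-22). Both stood under 30 in all controls, and the lowest stimulated library was far above the highest control.

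Ccl2 (chr11:82035571-82037453, + strand), the monocyte attractant MCP-1, ranged from 16.3 to 31.4 (median 19.1) in 5 % CTRL and from 1632 to 2680.2 (median 1894) in 5 % STIM (log2 fold change 6.50 ± 0.17, limma adjusted p = 1.3e-21). Ccl7 (chr11:82045712-82047525, + strand), its neighbour on the chromosome, ranged from 31.2 to 38.7 (median 35.2) in 5 % CTRL and from 760.4 to 1133 (median 893) in 5 % STIM (log2 fold change 4.63 ± 0.14, limma adjusted p = 4.6e-22). Per kilobase of exon, mean normalized counts after stimulation were 1727 for Cxcl1, 552 for Cxcl5, 1747 for Ccl2 and 1122 for Ccl7. On that scale the control levels were 3.83, 3.78, 18.6 and 43.7.

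Other members were higher as well. Cxcl16, a membrane-bound ligand of CXCR6, ranged from 16.8 to 25.9 (median 19.8) in 5 % CTRL and from 63.6 to 83.8 (median 69.6) in 5 % STIM (log2 fold change 1.72 ± 0.16), and 15.4 % of its transcript sequence in words of 75 bases occurs also in Zmynd15. Ccl20, the ligand of CCR6, had at most 1 read in any control and 17.4 to 66.4 (median 32.6) after stimulation. Cxcl2, a further CXCR2 ligand, had 0 in all controls and 11.1 to 27.6 (median 13.8) after stimulation, at least 5.68-fold higher against a floor of 3 counts per library. Cx3cl1, fractalkine, was already high and overlapped between the groups (log2 fold change 0.20 ± 0.05, limma adjusted p = 0.0084). Cxcl10, Cxcl9 and Ccl9 were named after their values were seen. Cxcl10, an interferon-induced ligand of CXCR3, ranged from 0 to 5.12 (median 2.09) in 5 % CTRL and from 26.6 to 44.0 (median 32.6) in 5 % STIM. Cxcl9 and Ccl9 had log2 fold changes of 0.99 ± 0.27 and 0.50 ± 0.17, and the call of Ccl9 was lost in 8 of 21 alternatives. The member that fell was Cxcl12, the constitutive CXCR4 ligand, at -0.13 ± 0.04, also named after its value was seen, and it lost its call with rescaled libraries.

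**Figure D2:**
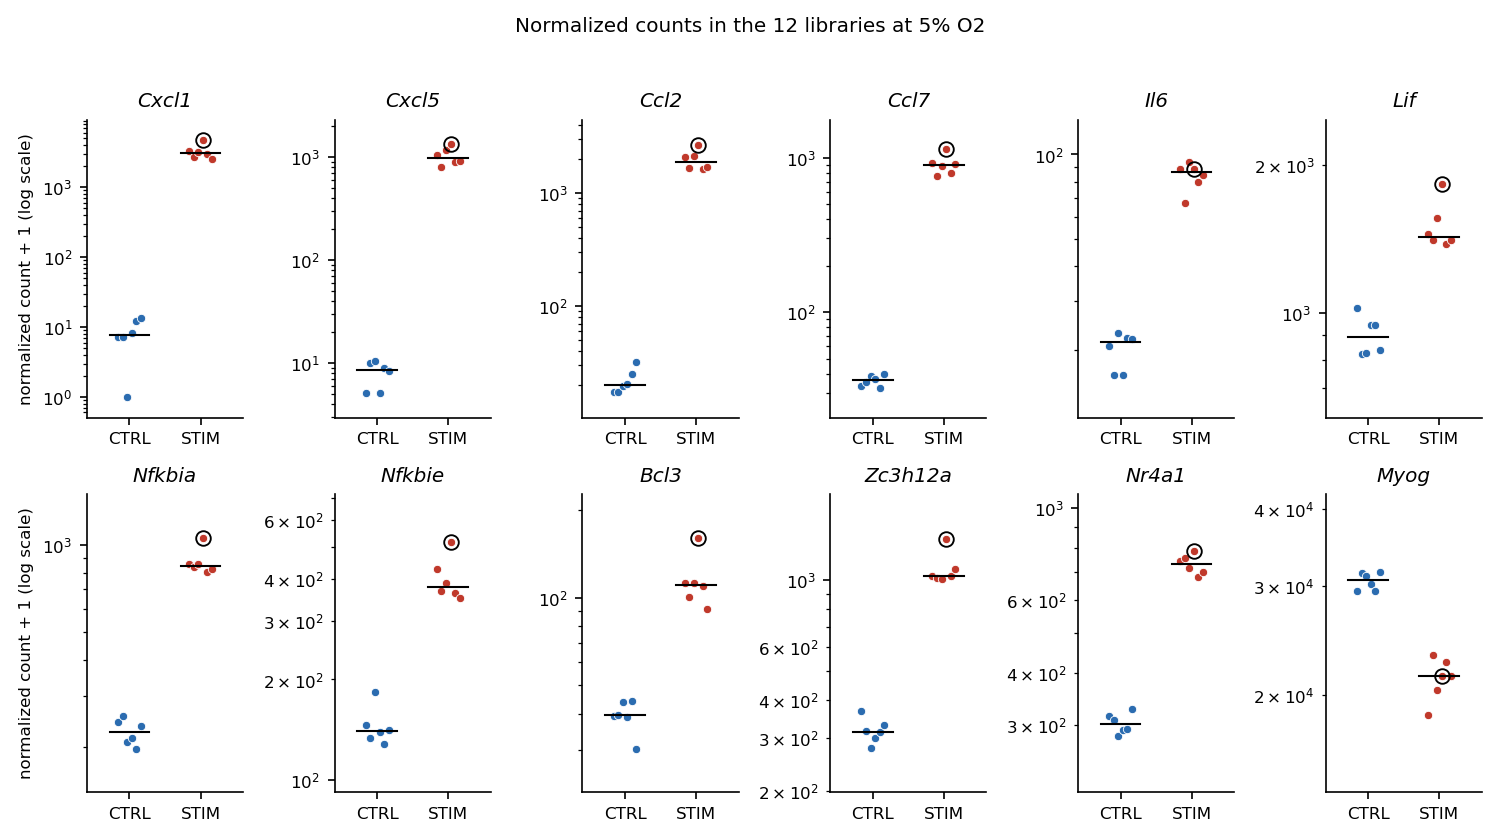
Normalized count + 1 on a log axis in the 6 libraries of 5 % CTRL (blue) and of 5 % STIM (red) for 12 genes, with a line at the median and a black ring around replicate 4 of 5 % STIM. The groups do not overlap for any of the 12 genes, Myog is the one that lies lower after stimulation, and the ringed library is the highest for the chemokines and inhibitors of NF-κB shown.

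Of 10 tested genes of the interleukin-6 family and the colony-stimulating factors 4 were higher, and the other 6 were not called. Il6, the best known myokine, ranged from 15.3 to 22.0 (median 20.3) in 5 % CTRL and from 65.9 to 92.9 (median 85.7) in 5 % STIM (log2 fold change 2.07 ± 0.22, limma adjusted p = 4.0e-09). It was low in both groups but did not overlap between them. Lif, a related cytokine that acts on satellite cells, ranged from 824 to 1022 (median 890.2) in 5 % CTRL and from 1377 to 1833 (median 1428) in 5 % STIM (log2 fold change 0.74 ± 0.06, limma adjusted p = 3.0e-10). Csf1, the macrophage growth factor, rose by 0.18 ± 0.04. Csf2, the factor GM-CSF, named after its value was seen, had 0 to 2.07 (median 0.504) in controls and 13.3 to 24.2 (median 15.8) after stimulation. Of the 10 genes, 1 passed the filter on low values only through the 5 % STIM libraries. Among the 4 that were higher, Csf2 alone had every control under 10, so its call is not evidence by itself. Among the other interleukins and TNF ligands, 3 of 13 were higher and 2 lower. Il15, an interleukin that muscle secretes, had low counts, from 20.9 to 36.6 (median 25.9) in 5 % CTRL and from 37.8 to 54.2 (median 43.5) in 5 % STIM, and rose by 0.76 ± 0.19 (named after its value was seen). Those that fell were Tnfsf9, the ligand 4-1BBL, at -0.57 ± 0.09, and Il33, an alarmin, at -0.21 ± 0.06.

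Some genes that restrain cytokine mRNA or NF-κB signalling rose with them. The list of mRNA decay and cytokine feedback also holds other signalling genes, such as Trib3 and Sgk1, given further on. In it 15 of 23 were higher (65.2 %) and 4 lower (17.4 %), with 14 free of overlap. For all genes tested the shares higher and lower were 9.44 % and 12 %. Zc3h12a, the RNase Regnase-1 that degrades Il6 mRNA, ranged from 278 to 368 (median 314) in 5 % CTRL and from 1011 to 1368 (median 1030.0) in 5 % STIM (log2 fold change 1.77 ± 0.08, limma adjusted p = 9.1e-19). Tnfaip3, the ubiquitin-editing enzyme A20 that shuts NF-κB signalling off, ranged from 836 to 968 (median 906) in 5 % CTRL and from 1342 to 1754 (median 1468) in 5 % STIM (log2 fold change 0.72 ± 0.05, limma adjusted p = 1.9e-13). Ier3, an early gene tied to survival, went from 473 to 559 (median 503) in 5 % CTRL and from 861 to 1192 (median 973) in 5 % STIM, a log2 fold change of 0.97 ± 0.07. None of these genes had a stimulated library within the control range.

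Brakes on growth factor signalling were lower more often than higher, as were all genes tested. Of 18 MAP kinase phosphatases and Sprouty proteins, 2 were higher (11.1 %) and 5 lower (27.8 %). For all genes tested these shares were 9.44 % and 12 %, and the median change of the list was -0.05. Spry1, an inhibitor of receptor tyrosine kinase signalling, ranged from 366 to 461 (median 390.3) in 5 % CTRL and from 156 to 187 (median 175) in 5 % STIM, and every stimulated library was under the lowest control (log2 fold change -1.19 ± 0.08, limma adjusted p = 6.0e-14). Errfi1, the inhibitor of the EGF receptor known as MIG6, changed by -0.49 ± 0.05. Dusp1, an early phosphatase of stress responses, ranged from 322 to 375 (median 346) in 5 % CTRL and from 298 to 381 (median 355) in 5 % STIM and did not pass (adjusted p = 0.96). Gadd45g, a stress sensor, ranged from 1278 to 1829 (median 1526) in 5 % CTRL and from 609.9 to 995 (median 788) in 5 % STIM and fell (log2 fold change -0.96 ± 0.15, limma adjusted p = 6.1e-05), and Sgk1, a kinase of ion transport, rose by 0.76 ± 0.04. Rcan1, the calcineurin inhibitor, did not pass at -0.08 ± 0.05, and Btg2, an early antiproliferative gene, rose by 0.27 ± 0.06 with overlap.

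Of 9 AP-1 and ATF members tested 3 were higher and the other 6 were not called. The 3 were Atf3, Fosl2 (0.32 ± 0.03) and Jdp2 (0.25 ± 0.04). Fos ranged from 79.6 to 137 (median 106) in 5 % CTRL and from 68.7 to 119.6 (median 93.5) in 5 % STIM, with overlapping libraries and a log2 fold change of -0.16 ± 0.13 (adjusted p = 0.4). Jun ranged from 1861 to 2509 (median 2347) in 5 % CTRL and from 2056 to 2724 (median 2484) in 5 % STIM, and its change of 0.11 ± 0.08 was within the spread (adjusted p = 0.38). Junb spread widely, from 1098 to 1938 (median 1598) in 5 % CTRL and from 1411 to 2762 (median 2265) in 5 % STIM, and gave 0.51 ± 0.21 (adjusted p = 0.092), a call that DESeq2 made at 0.0462 and limma also without 5 % STIM replicate 6 (adjusted p = 0.035). A single end point after the last bout was measured, so earlier peaks would not be seen.

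Serum response genes changed by small amounts, with log2 fold changes from -0.38 to 0.19. In that list of 11, 2 were higher (18.2 %) and 3 lower (27.3 %), against 9.44 % and 12 % of all genes tested. Egr1, a zinc finger factor that rises within minutes of serum or stretch, ranged from 3285 to 3742 (median 3596) in 5 % CTRL and from 2360.4 to 3585 (median 3056) in 5 % STIM and gave -0.27 ± 0.10 (adjusted p = 0.077), with a call only when 5 % STIM replicate 2 was left out (0.0358). Srf, serum response factor itself, ranged from 2346 to 2634 (median 2518) in 5 % CTRL and from 1813 to 2252 (median 1873) in 5 % STIM and fell (log2 fold change -0.38 ± 0.05, limma adjusted p = 3.9e-06). Egr3 fell by less, -0.18 ± 0.05, and overlapped. Ier2, an early gene of unclear role, did not pass at 0.07 ± 0.16. Mrtfb, a cofactor of Srf, and Nab1, a corepressor of EGR proteins, had log2 fold changes of 0.19 ± 0.04 and 0.14 ± 0.05, and the call of Nab1 was lost in 9 of 21 alternatives.

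Nr4a1 had the largest change among the NR4A receptors and CREB factors. This orphan nuclear receptor, induced by calcium and exercise in muscle, ranged from 282 to 327 (median 300.2) in 5 % CTRL and from 679 to 786 (median 729) in 5 % STIM (log2 fold change 1.27 ± 0.06, limma adjusted p = 1.3e-17), with no overlap. Nr4a3, its relative, ranged from 49.4 to 84.9 (median 70.3) in 5 % CTRL and from 80.7 to 118 (median 104) in 5 % STIM and overlapped, with a smaller change (log2 fold change 0.53 ± 0.12, limma adjusted p = 7.8e-04). Of the 10 members of the NR4A and CREB list, 3 were higher, the third being Crtc3, a CREB coactivator, at 0.14 ± 0.05 (adjusted p = 0.049, a call lost in 14 of 21 alternatives).

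Krüppel-like factors changed in both directions, with 7 of 14 higher and 3 lower. Of the 14, 1 passed the filter on low values only through the 5 % STIM libraries. Klf11, a TGF-β-inducible repressor, ranged from 351 to 423 (median 394) in 5 % CTRL and from 719 to 835 (median 802) in 5 % STIM without overlap (log2 fold change 1.02 ± 0.06, limma adjusted p = 8.6e-15). Klf15, a regulator of muscle lipid and amino acid use that glucocorticoids induce, was near 0 in controls, at 0 to 6.10 (median 2.61), and reached 13.2 to 31.0 (median 23.5) after stimulation (log2 fold change 2.96 ± 0.43, limma adjusted p = 2.2e-06). Klf15 is the only Krüppel-like factor named here with every control under 10, so its p-value is not evidence by itself. Klf9, a glucocorticoid-induced factor, Klf6 and Klf4 rose by 0.29 ± 0.04, 0.28 ± 0.03 and 0.17 ± 0.05. Klf2, a factor known from endothelium, fell by 0.62 on the log2 scale (adjusted p = 1.7e-04).

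Of 17 basic leucine zipper factors of stress 11 were higher and the other 6 were not called. Ddit3, the factor CHOP, ranged from 562 to 622 (median 587) in 5 % CTRL and from 823 to 1107 (median 894) in 5 % STIM (log2 fold change 0.63 ± 0.07, limma adjusted p = 1.3e-07). Atf4, abundant before stimulation, ranged from 8903 to 10561 (median 9549.7) in 5 % CTRL and from 11724 to 12804 (median 12539.8) in 5 % STIM (log2 fold change 0.37 ± 0.05, limma adjusted p = 7.6e-07). Cebpg, a dimer partner of ATF4, ranged from 1421 to 1655 (median 1512) in 5 % CTRL and from 2002 to 2317 (median 2183) in 5 % STIM, a log2 fold change of 0.52 ± 0.04. For each of them the 6 stimulated libraries lay above all controls. Nfe2l2, the oxidant sensor NRF2, and Nfe2l1, which controls proteasome genes, rose by 0.26 ± 0.03 and 0.25 ± 0.03. Cebpd, an acute phase factor, had few counts, from 9.21 to 32.5 (median 27.8) in 5 % CTRL and from 22.7 to 67.5 (median 44.5) in 5 % STIM (log2 fold change 0.91 ± 0.23, limma adjusted p = 0.0047).

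Atf3, which ATF4 is known to induce and which represses inflammatory genes, ranged from 139.9 to 213 (median 152) in 5 % CTRL and from 289 to 346 (median 302) in 5 % STIM and did not overlap (log2 fold change 0.94 ± 0.11, limma adjusted p = 3.6e-08). Its promoter and that of Slc7a11, described further on, hold the ATF4 element TTGCATCA, a motif added after results had been seen. It is in capitals, on either strand, in the windows shown here, from RefSeq on GRCm38.p6, which again run from 250 bases before to 50 bases after the start on the gene's strand.
Atf3, chr1:191183284-191183583 (- strand): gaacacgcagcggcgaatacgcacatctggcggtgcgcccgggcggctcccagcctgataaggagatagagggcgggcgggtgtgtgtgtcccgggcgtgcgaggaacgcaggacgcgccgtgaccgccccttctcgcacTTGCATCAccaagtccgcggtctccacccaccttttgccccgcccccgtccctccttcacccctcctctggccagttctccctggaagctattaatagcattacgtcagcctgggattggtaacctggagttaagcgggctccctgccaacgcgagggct
Slc7a11, chr3:50443564-50443863 (- strand): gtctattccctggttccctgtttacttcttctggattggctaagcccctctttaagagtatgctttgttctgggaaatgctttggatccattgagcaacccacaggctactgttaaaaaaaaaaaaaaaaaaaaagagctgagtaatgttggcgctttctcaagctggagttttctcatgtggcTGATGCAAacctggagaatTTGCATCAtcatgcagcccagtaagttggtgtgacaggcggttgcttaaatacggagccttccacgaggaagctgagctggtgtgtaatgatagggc

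The element began 110 bases before the start of Atf3 and 66 and 47 bases before that of Slc7a11, where it occurs in a pair. It was held by 0.78 % of genes tested with a promoter and by 3.03 % of the 66 genes with a log2 fold change of at least 1. The second share rests on 2 genes, which are not Atf3 and Slc7a11, since both of those changed by less than 1. The searched promoter of Trib3, an ATF4 target described further on, did not hold the element, nor did those of Sesn2 and Ddit4.

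Myogenic factors were lower more often than higher, as were all genes tested. Of 15 myogenic factors 6 were lower (40.0 %) and 2 higher (13.3 %), against 12 % and 9.44 % of all genes tested. Myog, myogenin, which drives fusion and terminal differentiation, ranged from 29456 to 31682 (median 30738) in 5 % CTRL and from 18549 to 23167 (median 21448) in 5 % STIM (log2 fold change -0.53 ± 0.04, limma adjusted p = 7.2e-11). Myod1, the determination factor, ranged from 3084 to 3684 (median 3656) in 5 % CTRL and from 2506 to 3081 (median 2658) in 5 % STIM (log2 fold change -0.37 ± 0.09, limma adjusted p = 0.0054). Pax7, the satellite cell factor, fell by 0.38 (adjusted p = 8.7e-04), while Myf5 and Six4 rose by 0.38 ± 0.07 and 0.60 ± 0.05. Of myotube structural genes, Acta1 at -0.05 ± 0.05 and Ckm at -0.03 ± 0.05 were not called, and Myh3 at -0.13 ± 0.04 was (adjusted p = 0.0081).

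Among the HES, HEY and ID factors 3 of 10 were lower and 2 higher. Id2, which blocks basic helix-loop-helix factors, ranged from 609.7 to 705 (median 671) in 5 % CTRL and from 344 to 387 (median 357) in 5 % STIM (log2 fold change -0.86 ± 0.05, limma adjusted p = 1.7e-14), and Hes1, the Notch target, ranged from 619.6 to 736 (median 671) in 5 % CTRL and from 359 to 452 (median 412) in 5 % STIM (log2 fold change -0.71 ± 0.06, limma adjusted p = 1.3e-10). For both genes the groups were apart. Heyl, another Notch target, fell by 0.36 (adjusted p = 9.3e-06), and Bhlhe41, the clock repressor DEC2, rose by 0.64 ± 0.04. Vcam1, an adhesion protein of myoblasts that NF-κB also controls in endothelium, ranged from 939.8 to 1107 (median 1039) in 5 % CTRL and from 1778 to 2515 (median 2068) in 5 % STIM (log2 fold change 1.05 ± 0.07, limma adjusted p = 1.9e-11).

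Clock genes leaned upward, 6 of 17 higher and 1 lower. Nr1d1, the repressor REV-ERBα, ranged from 946 to 1102 (median 1008) in 5 % CTRL and from 1344 to 1481 (median 1443) in 5 % STIM (log2 fold change 0.50 ± 0.05, limma adjusted p = 2.6e-09), and Cry2, a cryptochrome, gave 0.33 ± 0.05. Nr1d2, which encodes REV-ERBβ, and Rora, the activator that competes with both, rose by 0.34 ± 0.04 and 0.54 ± 0.07. Per1 ranged from 442 to 541 (median 487) in 5 % CTRL and from 472 to 652 (median 543) in 5 % STIM and did not pass (log2 fold change 0.17 ± 0.06, adjusted p = 0.055), and was called by edgeR at 0.0492 and by DESeq2 at 0.0465. Myc, a growth regulator, ranged from 1751 to 2189.8 (median 2064) in 5 % CTRL and from 2499.7 to 2921 (median 2697) in 5 % STIM (log2 fold change 0.41 ± 0.08, limma adjusted p = 4.0e-04), and its antagonist Mnt gave 0.59 ± 0.05. Foxo1 and Foxo3, factors of fasting and atrophy, changed by 0.14 ± 0.04 and 0.20 ± 0.04. Smad7, the inhibitor of TGF-β signalling, and Tgif1, a corepressor of SMAD proteins, rose by 0.30 ± 0.06 and 0.47 ± 0.04. Hif1a, the oxygen-regulated subunit of HIF-1, did not pass at 0.07 ± 0.04 (adjusted p = 0.24), although a fit with the length slope as a covariate called it at 0.11 (adjusted p = 0.0062).

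Of 24 tested VEGF, PDGF, angiopoietin-type and FGF ligands 7 were higher and 1 was lower. Angptl4, a lipoprotein lipase inhibitor and PPAR target, ranged from 5525 to 6242 (median 6042) in 5 % CTRL and from 10435 to 10920.1 (median 10630.0) in 5 % STIM (log2 fold change 0.83 ± 0.04, limma adjusted p = 6.1e-18). Pdgfb, a mitogen of mural cells, ranged from 713 to 770.0 (median 727) in 5 % CTRL and from 1092 to 1494 (median 1256) in 5 % STIM (log2 fold change 0.78 ± 0.05, limma adjusted p = 5.4e-14). Vegfc, the lymphatic growth factor, ranged from 140.2 to 183 (median 168) in 5 % CTRL and from 251 to 295 (median 268) in 5 % STIM (log2 fold change 0.73 ± 0.09, limma adjusted p = 1.4e-07). The groups did not overlap for these genes. Vegfa changed less (0.18 ± 0.03), and Fgf7, an epithelial mitogen, gave 0.41 ± 0.08.

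TGF-β superfamily ligands split, 3 higher (14.3 %) and 3 lower (14.3 %) of 21, near the 9.44 % and 12 % of all genes tested. Gdf15, a stress cytokine that signals to the hindbrain, ranged from 34.3 to 68.1 (median 52.3) in 5 % CTRL and from 76.4 to 146 (median 126) in 5 % STIM (log2 fold change 1.21 ± 0.18, limma adjusted p = 6.1e-06). Gdf5, a ligand that protects denervated muscle, rose by 0.67 ± 0.07, though 38.6 % of its sequence occurs in the overlapping gene Gm15557. Gdf6 ranged from 107 to 138 (median 129) in 5 % CTRL and from 70.7 to 87.8 (median 76.5) in 5 % STIM and fell (log2 fold change -0.70 ± 0.11, limma adjusted p = 5.8e-06), as did Inhbb, the activin B subunit, which fell by 0.52. Inhba, the activin A subunit, did not pass at 0.07 ± 0.05 (adjusted p = 0.39). Of the WNT ligands, Wnt11 rose by 0.63 ± 0.14 and Wnt9a fell by 0.33, and Igf2 changed by -0.10 ± 0.03 with a call lost in 9 of 21 alternatives, edgeR among them.

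EGF-type ligands gave small changes. Nrg1, neuregulin, ranged from 721 to 794 (median 775) in 5 % CTRL and from 1003 to 1158 (median 1042) in 5 % STIM (log2 fold change 0.46 ± 0.04, limma adjusted p = 4.8e-10). Hbegf, which exercise is known to raise in muscle, ranged from 2711 to 3193 (median 2809) in 5 % CTRL and from 2241 to 2703 (median 2428) in 5 % STIM and was lower (log2 fold change -0.23 ± 0.05, limma adjusted p = 4.6e-04). Ereg, epiregulin, rose by 0.21 ± 0.07 with overlapping libraries, a call lost in 8 of 21 alternatives, and Areg, amphiregulin, did not pass at 0.12 ± 0.22.

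Of 12 matricellular genes 4 were lower and 1 higher, and of 17 exercise-linked peptides and neurotrophins 5 were lower and 4 higher. Edn1, the vasoconstrictor endothelin-1, ranged from 337 to 394 (median 369) in 5 % CTRL and from 187 to 255 (median 208) in 5 % STIM (log2 fold change -0.77 ± 0.07, limma adjusted p = 2.4e-10). Apln, apelin, a peptide linked to exercise, ranged from 116 to 154 (median 138) in 5 % CTRL and from 67.9 to 97.1 (median 77.2) in 5 % STIM (log2 fold change -0.77 ± 0.09, limma adjusted p = 2.4e-08). Ccn1, a matrix protein controlled by the mechanosensitive factor YAP, ranged from 10603 to 11748 (median 11208) in 5 % CTRL and from 7684 to 8962 (median 8511) in 5 % STIM (log2 fold change -0.42 ± 0.04, limma adjusted p = 7.6e-10). All 3 had every stimulated library under the control range.

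Sparcl1, a relative of the matrix protein SPARC, was low and fell by 0.52 with overlap, a call lost in 4 of 21 alternatives. Ccn2, a second YAP target, fell by 0.34 (adjusted p = 3.1e-04), while Tnc, tenascin C, changed by -0.13 ± 0.04, a call lost in 6 of 21 alternatives, and Thbs1, a thrombospondin, did not pass at 0.03 ± 0.03. Adm, adrenomedullin, fell by 0.37, and Metrnl, meteorin-like, fell by 0.21. Stc2, a stanniocalcin that ATF4 is known to induce, ranged from 322 to 429 (median 378) in 5 % CTRL and from 489 to 625 (median 520.3) in 5 % STIM (log2 fold change 0.50 ± 0.07, limma adjusted p = 6.4e-07). Bdnf, a neurotrophin, rose by 0.15 ± 0.04 (adjusted p = 0.011). Among proteases, Plau, urokinase, ranged from 4668 to 4995 (median 4939) in 5 % CTRL and from 3007 to 3444 (median 3312) in 5 % STIM (log2 fold change -0.59 ± 0.04, limma adjusted p = 4.6e-15), and Adamts4, an aggrecanase, rose by 0.56 ± 0.04.

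**Figure D3:**
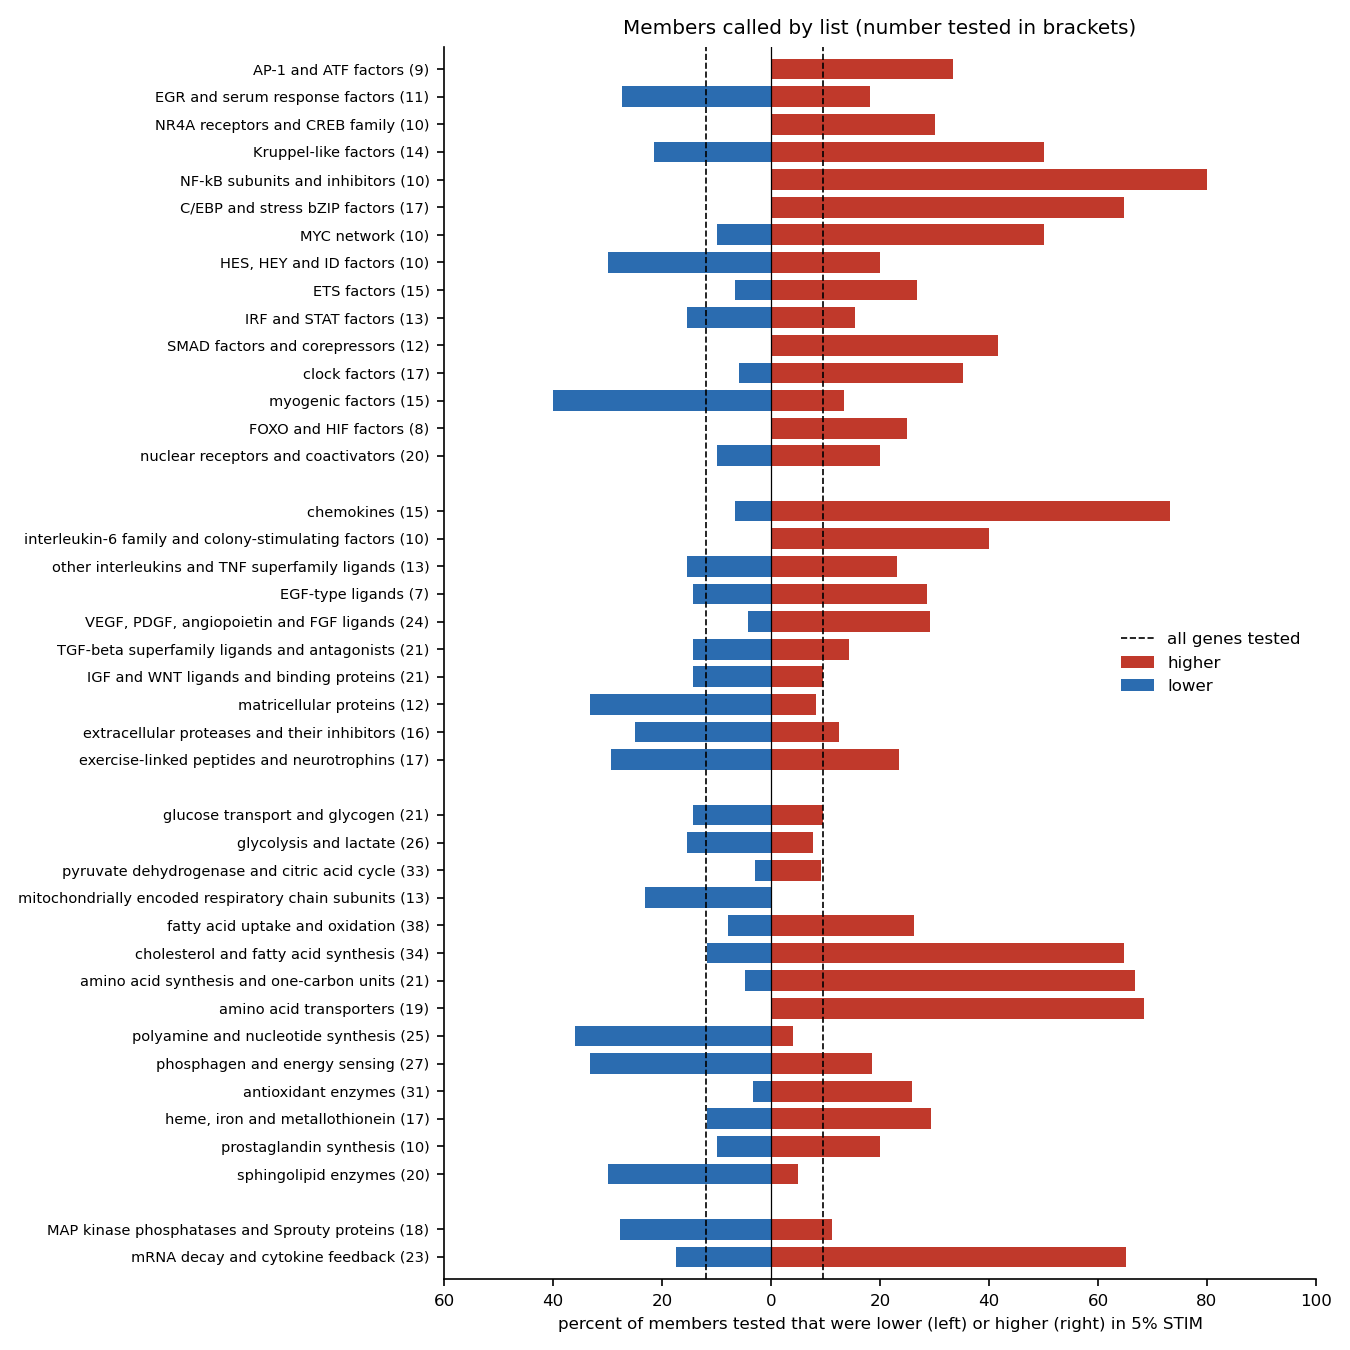
Percent of the members tested that were higher (red, to the right) or lower (blue, to the left) in 5 % STIM for each of the lists, with the number tested in brackets and dashed lines at the shares of all genes tested, 9.44 % and 12 %. NF-κB genes, chemokines, mRNA decay and cytokine feedback, amino acid transporters, amino acid synthesis, sterol and fatty acid synthesis and stress factors extend farthest to the right, and myogenic factors farthest to the left.

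Among metabolic genes, synthesis of cholesterol and fatty acids changed most by count, 22 of 34 higher and 4 lower, with 22 free of overlap. Insig1, which retains the SREBP complex in the endoplasmic reticulum and is itself an SREBP target, ranged from 1769.7 to 1966 (median 1908) in 5 % CTRL and from 3221 to 3523 (median 3430.4) in 5 % STIM (log2 fold change 0.84 ± 0.04, limma adjusted p = 1.3e-18). Hmgcs1, the HMG-CoA synthase, ranged from 6785 to 7555 (median 7169.8) in 5 % CTRL and from 10448 to 10927 (median 10779) in 5 % STIM (log2 fold change 0.58 ± 0.04, limma adjusted p = 1.1e-14). Msmo1, a sterol demethylase, ranged from 1750.4 to 1934 (median 1811) in 5 % CTRL and from 2886 to 3252 (median 3027) in 5 % STIM (log2 fold change 0.73 ± 0.04, limma adjusted p = 5.4e-17). For these genes all 6 stimulated libraries were above all controls.

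Fdft1, squalene synthase, and Stard4, a cholesterol carrier, rose by 0.53 ± 0.04 and 0.69 ± 0.05, and Srebf2, which encodes SREBP2, by 0.16 ± 0.04. Lpin1, a phosphatidate phosphatase, rose by 0.89 ± 0.08. Of the 4 that fell, 3 are given here, named after their values were seen. They were Fasn, fatty acid synthase, Elovl6, an elongase, and Acaca, acetyl-CoA carboxylase, at -0.38 ± 0.04, -0.36 ± 0.08 and -0.21 ± 0.04. These 3 serve fatty acid rather than sterol synthesis. Srebf1, which encodes SREBP1, did not pass at -0.04 ± 0.06.

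Of 21 genes of amino acid synthesis and one-carbon units 14 were higher and 1 lower, and of 19 amino acid transporters 13 were higher and the other 6 were not called. Cth, which makes cysteine from cystathionine, ranged from 70.6 to 112 (median 86.0) in 5 % CTRL and from 197 to 261 (median 213) in 5 % STIM (log2 fold change 1.31 ± 0.12, limma adjusted p = 7.5e-11). Gpt2, the mitochondrial alanine transaminase, ranged from 2969 to 3316 (median 3171) in 5 % CTRL and from 4691 to 5196 (median 4933) in 5 % STIM (log2 fold change 0.65 ± 0.04, limma adjusted p = 6.2e-16). Slc7a11, the cystine importer whose promoter is shown with that of Atf3, ranged from 853 to 1081 (median 1009) in 5 % CTRL and from 1681 to 1922 (median 1726) in 5 % STIM (log2 fold change 0.82 ± 0.05, limma adjusted p = 1.1e-13). None of the 3 overlapped.

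Slc3a2, the heavy chain that Slc7a11 and other transporters need, ranged from 5413 to 6356 (median 6068) in 5 % CTRL and from 8233 to 9028 (median 8714) in 5 % STIM (log2 fold change 0.54 ± 0.05, limma adjusted p = 2.4e-10). Slc7a2, an importer of cationic amino acids, and Slc6a9, the glycine transporter, rose by 0.67 ± 0.06 and 0.67 ± 0.04, with 24.3 % of Slc6a9 sequence shared with neighbouring genes. Psph, the last step of serine synthesis, and Mthfd2, a mitochondrial folate enzyme, rose by 0.55 ± 0.05 and 0.34 ± 0.03. Trib3, a pseudokinase and ATF4 target that inhibits AKT, ranged from 213 to 249 (median 222) in 5 % CTRL and from 704 to 783 (median 764) in 5 % STIM (log2 fold change 1.74 ± 0.07, limma adjusted p = 1.6e-19).

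Several genes that favour fat over glucose as a fuel rose. Pdk4, the kinase that closes pyruvate dehydrogenase, ranged from 839 to 949 (median 882) in 5 % CTRL and from 1405 to 1903 (median 1642) in 5 % STIM (log2 fold change 0.89 ± 0.08, limma adjusted p = 9.8e-10). Cpt1a, the entry step of long-chain fatty acids into mitochondria, ranged from 1397 to 1585 (median 1499) in 5 % CTRL and from 2115 to 2276 (median 2222) in 5 % STIM (log2 fold change 0.56 ± 0.04, limma adjusted p = 4.6e-14). Ucp3, an uncoupling protein of muscle, ranged from 44.6 to 70.5 (median 64.9) in 5 % CTRL and from 88.8 to 152 (median 119.6) in 5 % STIM (log2 fold change 0.92 ± 0.13, limma adjusted p = 9.7e-07). In the list of fatty acid uptake and oxidation 10 of 38 were higher and 3 lower, and in pyruvate dehydrogenase and the citric acid cycle 3 of 33 were higher and 1 lower, 12.1 % called against 21.4 % of all genes. Pdp2, the phosphatase that opposes Pdk4, was among the 3 at 0.30 ± 0.07. Lipe, hormone-sensitive lipase, and Acsl3, an acyl-CoA synthetase, gave 0.74 ± 0.14 and 0.40 ± 0.04. Ppargc1a, the coactivator PGC-1α that rises in exercised muscle, was low, from 12.6 to 31.4 (median 25.6) in 5 % CTRL and from 20.3 to 32.7 (median 24.7) in 5 % STIM, and did not pass (0.19 ± 0.19, adjusted p = 0.56).

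Glycolysis genes were called about as often as all genes, with 2 of 26 higher and 4 lower. Pfkfb3, which makes the activator of phosphofructokinase, ranged from 857 to 1048 (median 963) in 5 % CTRL and from 634 to 727 (median 685) in 5 % STIM (log2 fold change -0.50 ± 0.04, limma adjusted p = 8.8e-11). Ldha, lactate dehydrogenase, fell by 0.12, and Slc2a1, the basal glucose transporter, fell by 0.11, a call lost in 4 of 21 alternatives, rescaled libraries among them. Hk2, hexokinase II, rose by 0.13 ± 0.03 and overlapped.

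In the list of energy sensing and phosphagens 5 of 27 were higher and 9 lower. Sesn2, a leucine sensor that restrains mTORC1, ranged from 492 to 602 (median 533) in 5 % CTRL and from 952 to 1062 (median 960.0) in 5 % STIM (log2 fold change 0.87 ± 0.06, limma adjusted p = 2.4e-14). Ddit4, the mTORC1 inhibitor REDD1, ranged from 207 to 295 (median 244) in 5 % CTRL and from 432 to 472 (median 442) in 5 % STIM (log2 fold change 0.82 ± 0.14, limma adjusted p = 1.5e-04). Txnip, which removes glucose transporters from the membrane, ranged from 3446 to 3513 (median 3484) in 5 % CTRL and from 2409 to 2802 (median 2629) in 5 % STIM and fell (log2 fold change -0.42 ± 0.04, limma adjusted p = 6.7e-11). Sesn1 and Irs2, the insulin receptor substrate, rose by 0.55 ± 0.05 and 0.38 ± 0.08. Depp1, a FOXO target, was the gene that fell most among those named. It ranged from 339.6 to 452 (median 394) in 5 % CTRL and from 87.9 to 127 (median 94.9) in 5 % STIM, a log2 fold change of -1.98 ± 0.09 with no overlap.

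Respiratory chain subunits encoded in the mitochondrial genome were called about as often as all genes, 3 of 13 (23.1 %) against 21.4 %. Those 3 were lower, while changes over the 13 ran from -0.62 to 0.92, with 4 above 0. mt-Nd1 ranged from 73689 to 80406 (median 79171) in 5 % CTRL and from 58373 to 65579.5 (median 61102) in 5 % STIM (log2 fold change -0.35 ± 0.05, limma adjusted p = 3.0e-06), and mt-Cytb and mt-Nd2 fell by 0.28 and 0.24. Their groups did not overlap. Polyamine and nucleotide synthesis had 9 of 25 lower and 1 higher, with Cad, the start of pyrimidine synthesis, at -0.26 ± 0.04, and Odc1, ornithine decarboxylase, not called at 0.03 ± 0.03. Sphingolipid enzymes had 6 of 20 lower and 1 higher. Ugcg, glucosylceramide synthase, ranged from 6864 to 7789 (median 7441) in 5 % CTRL and from 4551 to 5219.8 (median 4863) in 5 % STIM (log2 fold change -0.60 ± 0.04, limma adjusted p = 4.6e-15), while Sgms2, a sphingomyelin synthase, rose by 0.43 ± 0.05, and Sphk1, a sphingosine kinase, did not pass at 0.12 ± 0.08.

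Slc40a1, the iron exporter ferroportin, ranged from 66.0 to 96.2 (median 79.1) in 5 % CTRL and from 153 to 189 (median 173) in 5 % STIM (log2 fold change 1.09 ± 0.09, limma adjusted p = 1.9e-11). Ptgs2, the inducible cyclooxygenase, ranged from 5564 to 6776 (median 5938) in 5 % CTRL and from 7290.0 to 9876 (median 9074) in 5 % STIM (log2 fold change 0.56 ± 0.07, limma adjusted p = 1.7e-06). Neither gene overlapped between the groups. Hmox1, heme oxygenase, gave 0.89 ± 0.04, and Mt2, a metallothionein, 0.31 ± 0.11, a call lost in 13 of 21 alternatives and with 30.2 % of its sequence shared with Gm45774.

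**Figure D4:**
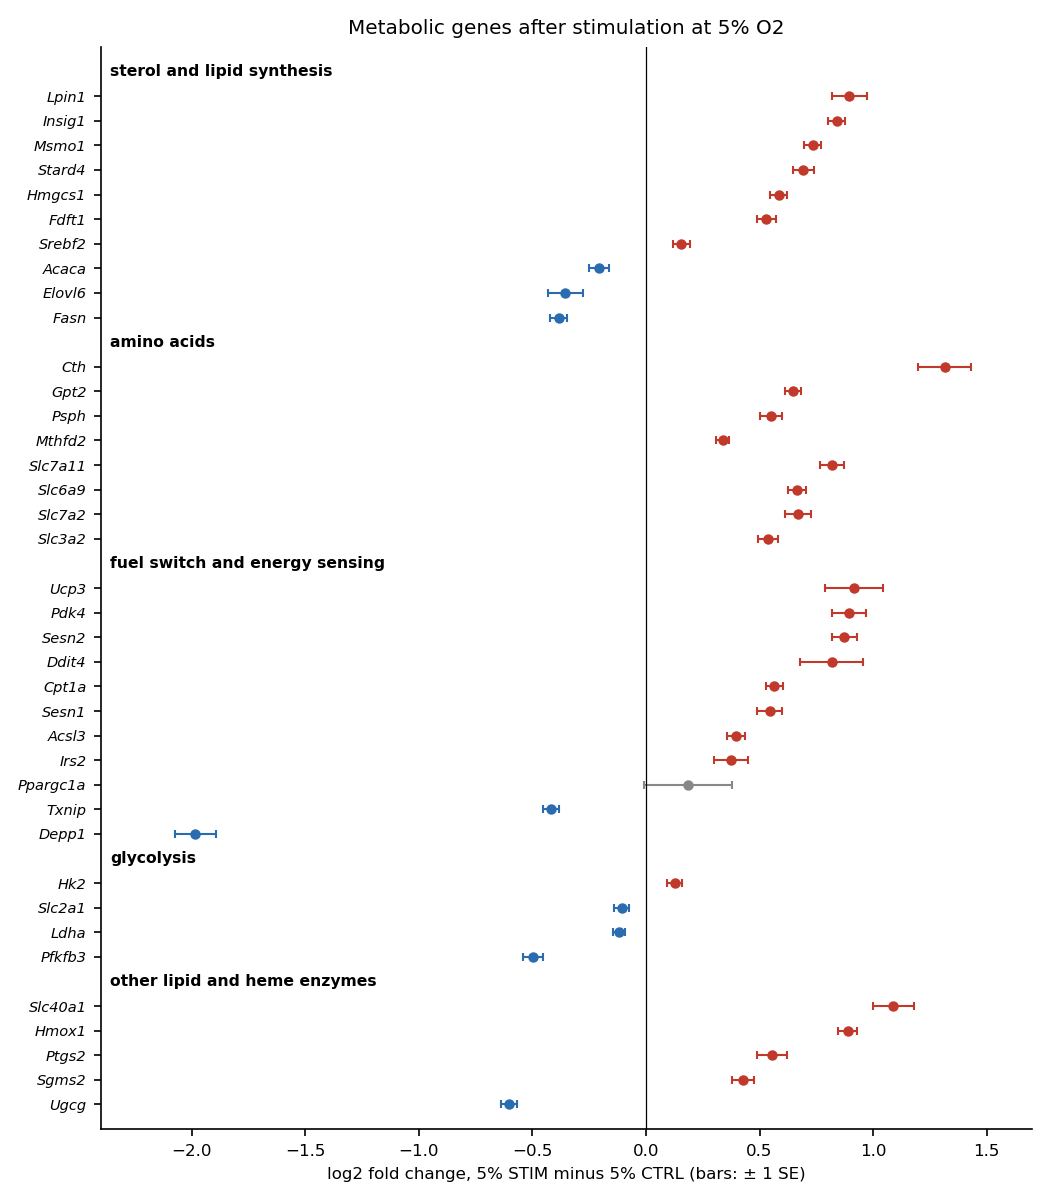
Log2 fold change, 5 % STIM minus 5 % CTRL, of metabolic genes in 5 groups, with bars of 1 SE from limma (red, higher; blue, lower; grey, not called). Cth is highest at 1.31, Depp1 lowest at -1.98, and Fasn, Elovl6 and Acaca lie on the other side of 0 from the sterol genes above them.

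Outside the lists, genes with a mean of at least 100 and a large change included further kinases, nuclear proteins and receptors. Pim1, a survival kinase, ranged from 96.7 to 122 (median 107) in 5 % CTRL and from 326 to 423 (median 398) in 5 % STIM (log2 fold change 1.83 ± 0.08, limma adjusted p = 3.4e-18). Bmf, a BH3-only protein that promotes cell death, ranged from 34.6 to 52.3 (median 42.8) in 5 % CTRL and from 103 to 158 (median 139) in 5 % STIM (log2 fold change 1.66 ± 0.12, limma adjusted p = 2.9e-13), and Nod2, a sensor of bacterial wall fragments upstream of NF-κB, ranged from 89.5 to 105 (median 94.9) in 5 % CTRL and from 246 to 347 (median 261) in 5 % STIM (log2 fold change 1.49 ± 0.09, limma adjusted p = 1.1e-14). Hist1h1d, a linker histone, rose by 2.14 ± 0.12. In the p53 response list 3 of 10 were higher and 2 lower. Its member Trp53inp1, a p53 target that promotes autophagy, rose by 1.12 ± 0.05.

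Downward, Rnf145, a ubiquitin ligase of sterol control, ranged from 1431 to 1562 (median 1491) in 5 % CTRL and from 640.0 to 785 (median 707) in 5 % STIM (log2 fold change -1.07 ± 0.05, limma adjusted p = 6.8e-19), and Otud1, a deubiquitinase, ranged from 481 to 631 (median 526) in 5 % CTRL and from 219 to 286 (median 271) in 5 % STIM (log2 fold change -1.03 ± 0.07, limma adjusted p = 8.0e-14). Lpcat1, an enzyme of phosphatidylcholine remodelling, Gpr35, an orphan receptor, and Adora1, an adenosine receptor, fell by 0.99, 0.93 and 0.90. The pseudogene Rpl36a-ps3 was also among them (-1.91 ± 0.49), but 69.6 % of its sequence occurs in other genes, so its reads are uncertain. Of 15 heat shock genes 5 were lower and 1 higher, with Hspa8, the constitutive chaperone, at -0.13 ± 0.04, Hsph1, its nucleotide exchange factor, at -0.14 ± 0.04, and Hspa1a, the inducible one, not called at 0.09 ± 0.24.

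The response at 5 % O2 was set against that of the 12 libraries at 1 % O2, where 1 % STIM and 1 % CTRL differ in the same way and the myotubes had spent 2 h at 1 % O2. The difference itself was tested as an interaction in the same limma fit, and it was called for 1645 genes (11.3 %). The log2 fold change was higher at 1 % for 855 of them and lower for 790. Among transcription factors it was called for 49 of 191, among secreted factors for 44 of 156 and among metabolic genes for 76 of 335. The log2 fold change was lower at 1 % for 39 of these 49 transcription factors, 32 of the 44 secreted factors and 50 of the 76 metabolic genes. Of these, 28, 20 and 30 had been called higher at 5 %. The others were lower or not called there, so a lower value at 1 % is not always a weaker rise.

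Chemokines gave the widest gaps. Cxcl1 changed by 4.23 ± 0.43 at 1 % against 8.95 ± 0.43 at 5 %, a difference of -4.72 ± 0.61 (interaction adjusted p = 1.7e-05), and its mean in 1 % STIM was 167 against 3239 in 5 % STIM. The control means were 8.20 and 7.19. Cxcl5, Ccl2 and Ccl7 differed by -3.28 ± 0.27, -3.28 ± 0.25 and -2.32 ± 0.20. Ccl20 and Cxcl2, with means of 35.0 and 17.5 in 5 % STIM, had 0.321 and 0.321 in 1 % STIM. Both passed the filter on low values only through the 5 % STIM libraries, so their gaps are not evidence by themselves.

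NF-κB genes followed. Nfkbia changed by 0.49 ± 0.07 at 1 % (interaction -1.46 ± 0.09, adjusted p = 2.0e-13) and Bcl3 by -0.03 ± 0.14 (interaction -1.55 ± 0.20, adjusted p = 1.6e-06). For Tnfaip3 the direction was opposite, -0.71 ± 0.05 at 1 % against 0.72 ± 0.05 at 5 % (interaction -1.43 ± 0.07, adjusted p = 3.1e-16). Lif gave the same pattern, -0.91 ± 0.06 against 0.74 ± 0.06. Unstimulated means of Tnfaip3 were 1955 at 1 % O2 and 905 at 5 %, and those of Lif were 1008 and 899.

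Irf5, an interferon regulatory factor of innate immunity, ranged from 3.02 to 11.5 (median 10.4) in 5 % CTRL and from 26.6 to 66.4 (median 34.2) in 5 % STIM, and its response was lower at 1 % (interaction -1.61 ± 0.40). Other members had the stronger response at 1 %. Pdk4 changed by 1.56 ± 0.08 there (interaction 0.66 ± 0.11, adjusted p = 1.1e-04), and Dusp1, not called at 5 %, gave 0.48 ± 0.06 (interaction 0.47 ± 0.08). Ddit4l, a relative of Ddit4, and Slc2a3, a glucose transporter with few counts, were not called at 5 % (0.33 ± 0.15 and 0.07 ± 0.22) and had interactions of 0.82 ± 0.21 and -0.99 ± 0.32. Atf3, Nr4a1, Myog and Ptgs2 had no called interaction, with differences of -0.09 ± 0.15, -0.07 ± 0.08, -0.11 ± 0.06 and -0.05 ± 0.10. These values do not show that the responses were equal.

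**Figure D5:**
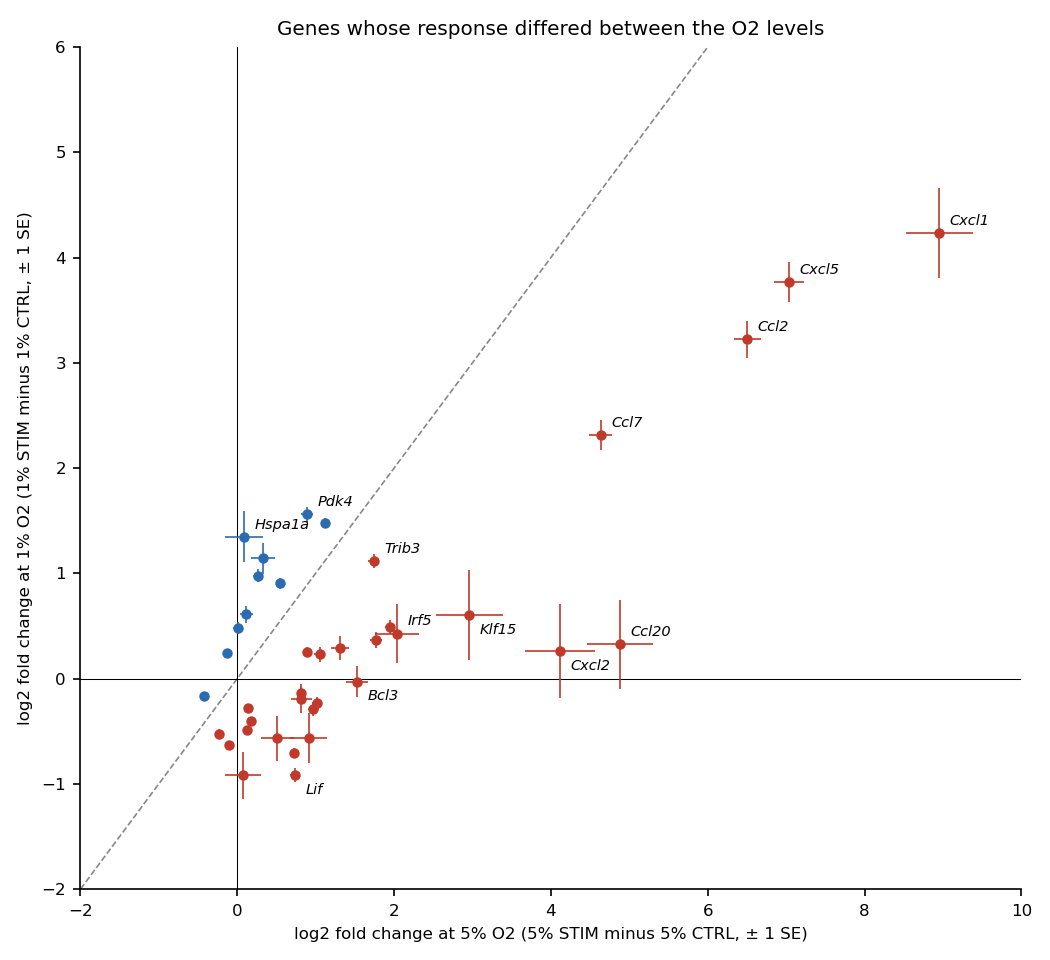
Log2 fold change after stimulation at 1 % O2 against that at 5 % O2, with bars of 1 SE, for the 39 named genes whose interaction was called, and a dashed line where both would be equal (red, lower log2 fold change at 1 %; blue, higher). Cxcl1, Cxcl5, Ccl2 and Ccl7 lie at 4.23, 3.76, 3.22 and 2.31 on the vertical axis, under the line, and Ccl20 and Cxcl2 lie at 0.32 and 0.26. Ccl20 and Cxcl2 passed the filter on low values only through the 5 % STIM libraries, and Klf15 was under 10 in every 5 % control.

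Of the 187 genes named here with values, 19 share at least 10 % of their transcript sequence, in words of 75 bases on either strand, with another gene, and their reads may be split. Besides those stated above they are Acaca, Adora1, Bdnf, Bhlhe41, Ccn2, Cebpd, Fdft1, Hspa1a, Hspa8, Igf2, Nfkb2, Odc1, Spry1 and Txnip.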

How the data were processed

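RNA-seq was measured in 24 libraries, 12 of them at 5 % O2, from a TruSeq stranded mRNA kit. The authors aligned reads to GRCm38 with STAR 2.5.4b and counted genes with RSEM 1.3.0, per the submitters' processing notes and the study's methods. RSEM was run with default parameters, which do not use strand, so reads of genes that overlap on opposite strands may not be told apart. The deposited values are a signal, gene counts divided by the library's size factor, and 100 % of them gave whole reads within 0.1, so depth was recovered. All 24 libraries, named biological replicates in the study's methods, entered 1 limma 3.58.1 fit (R 4.3.3) of 4 groups on log2(normalized count + 1), with a mean-variance trend, robust moderation and Benjamini-Hochberg adjustment over 14541 genes. The step was tested on simulated data and recovered 83 % of genes changed by 0.5 and 97 % of those changed by 1 (log2, 200 genes of the 5 % comparison). edgeR 4.0.16 and DESeq2 1.42.0 on the recovered reads were alternatives. Counting error limits genes with few reads.

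Members and lists (41, plus 7 of markers and stress genes, 832 genes) were chosen with earlier results of these data known. A rule made 396 genes nameable: the 12 that rose and the 12 that fell most with a mean of at least 100 and no overlap, up to 6 called members per list with a mean of at least 50, core genes, up to 5 genes per family by interaction, and up to 3 abundant members per list that did not pass. The text gives a selection, and exceptions are stated. A library of a group was compared with the others by chi-square of counts, and none agreed within sampling noise. Sequences are from RefSeq. A few genes are not reported here.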

Additional observations from a re-analysis of the deposited data

Results flagged for a closer look

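A library stood apart from the other 5 of its group, by Dixon's test, in 26 of 374 groups checked, 2 groups for each of 187 named genes. Chance alone gives about 1 in 20. In 5 % STIM replicate 4 the normalized counts of Cxcl1 (4673), Nfkbia (1056), Zc3h12a (1368), Nod2 (347), Bcl3 (159) and Irf5 (66.4) stood above the other stimulated libraries. In 5 % CTRL replicate 1 those of Tnc (107982), Plau (4668), Cad (3904), Cx3cl1 (1855), Mnt (666), Cxcl9 (16.6) and Ccl20 (1.04) stood apart. Among other controls this held for Nfkbie in replicate 3 (182), Six4 in replicate 5 (704) and mt-Nd1 in replicate 6 (73689). Among other stimulated libraries it held for Cxcl12 (1917) and Ddit4 (472) in replicate 1, for Depp1 (127), Odc1 (4598) and Srf (2252) in replicate 2, for Cad (2678) and Slc7a11 (1922) in replicate 3, and for Ddit3 (1107), Sesn2 (1062) and Slc2a1 (2364) in replicate 6.

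The response to stimulation differed between 1 % and 5 % O2 for 39 of 62 named genes checked, by the interaction term of the limma fit. Named genes were chosen in part by this term, so the share is a description, beside 11.3 % of all genes tested. Differences are the log2 fold change at 1 % minus that at 5 %. Of the 39, 25 were higher at 5 % with a lower log2 fold change at 1 %, and 7 of these 25 were called lower at 1 %. 1 other gene was called lower at 5 % and higher at 1 %. For chemokines and the cytokine Lif the differences were -4.72 (Cxcl1), -4.55 (Ccl20), -3.86 (Cxcl2), -3.28 (Cxcl5), -3.28 (Ccl2), -2.32 (Ccl7) and -1.65 (Lif). Ccl20 and Cxcl2 passed the filter on low values only through the 5 % STIM libraries, so their differences are not evidence by themselves. For transcription factors and NF-κB inhibitors the differences were -2.35 (Klf15, under 10 in every 5 % control and so limited in the same way), -1.61 (Irf5), -1.55 (Bcl3), -1.47 (Cebpd), -1.46 (Nfkbia), -1.25 (Nfkbiz), -1.08 (Junb), -0.42 (Foxo1) and 0.50 (Jun). For feedback and stress genes they were -1.43 (Tnfaip3), -1.41 (Zc3h12a), -1.26 (Ier3), -0.82 (Vcam1), -0.63 (Trib3), 0.36 (Trp53inp1), 0.38 (Hsph1), 0.47 (Dusp1), 0.71 (Btg2) and 1.26 (Hspa1a).

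For metabolic genes the differences were -1.02 (Cth), -1.01 (Ddit4), -0.99 (Slc2a3), -0.96 (Slc7a11), -0.63 (Hmox1), -0.61 (Hk2), -0.52 (Slc2a1), 0.25 (Txnip), 0.36 (Sesn1), 0.66 (Pdk4) and 0.82 (Ddit4l). For other secreted factors they were -0.59 (Vegfa) and -0.29 (Hbegf).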

How the results depend on the processing

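With an adjusted p-value under 0.01 in place of 0.05, the genes called between 5 % STIM and 5 % CTRL fell to 1944 and the genes with a differing response to 830, by construction. With it 75 transcription factors, 50 secreted factors and 114 metabolic genes were called. The other alternatives that kept all libraries at 5 % O2, among them a fit of these libraries alone, gave counts within 1.5 times the main ones. They were 2703 to 3561 called genes in all, 80 to 93 transcription factors, 61 to 69 secreted factors, 122 to 143 metabolic genes and 1660 to 1710 genes with a differing response. With each library left out in turn the counts were 2666 to 3144 in all, 80 to 86 transcription factors, 57 to 64 secreted factors and 125 to 133 metabolic genes. Of 165 called genes named in the text, 153 kept their call in all 21 alternatives, 12 lost it in at least 1, and none changed sign. Those 12 were Il33, Ereg, Igf2, Tnc, Bdnf, Slc2a1, Mt2, Cxcl12, Ccl9, Crtc3, Nab1 and Sparcl1. Of genes not called, Junb, Egr1, Rela, Per1 and Hif1a passed in at least 1 alternative. The cause was not tested.

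Replicate numbers are shared between the groups. Deviations of same-numbered libraries from their group means correlated between -0.07 and 0.15, and only replicate 2 correlated best with its own number, so the numbers were not taken to pair the libraries. With the replicate number as a block, 3190 genes were called in all (1424 higher, 1766 lower), 86 transcription factors, 66 secreted factors and 134 metabolic genes, and 1710 genes had a differing response. Genes with few reads, such as Ccl20, Cxcl2 and Klf15, have imprecise fold changes, and genes too low to be tested were not compared at this depth.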

Other observations

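Genes that changed by at least 1 on the log2 scale were compact. The 110 higher ones had a median span on the genome of 9811 bases and the 18 lower ones of 6950, against 21165 for all genes tested, while the median exon lengths were 2750, 2799 and 4180 bases. For all 1372 genes called higher the median span was 26110 bases. The groups differ in makeup, since 88 of the 110 and 10 of the 18 are protein coding, against 12895 of 14541, and 47 and 5 reach a mean of 100. Among protein coding genes with such a mean, a restriction chosen after seeing the data, the median spans were 12043 bases for the 42 higher ones and 3742 for the 4 lower ones, against 25821 for 10412 tested. These are descriptions, since genes are not replicates.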
